A study of Mus musculus with 6 samples.

Results

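The genes described here carry out homologous recombination, the Fanconi anaemia pathway and the replication checkpoint. They are 38 of the 21666 genes in the whole-series count matrix, chosen by name and matched from symbol to Ensembl identifier. The rule itself uses no measured value, but the members were chosen with earlier results of these data known. RNA was sequenced in 3 libraries of satellite cells from lncMREF knockout (KO) mice and in 3 libraries of satellite cells from wild-type (WT) mice. Satellite cells are the stem cells of skeletal muscle, and all 6 cultures had been differentiated for 2 days before total RNA was taken. lncMREF is a long noncoding RNA that the series title links to myogenic differentiation. The sources used here do not state the knockout allele, the age of the mice or whether replicates came from separate animals. P-values therefore reflect variation among these 6 libraries alone, which could be technical. The targeted RNA was not analysed here, so the genotypes rest on the labels.

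Homologous recombination repairs broken or stalled replication forks by copying the sister chromatid. The broken end is trimmed by nucleases, BRCA1, PALB2 and BRCA2 prepare the single strand for strand exchange, and helicases and nucleases later separate the joined molecules. The Fanconi core complex attaches ubiquitin to the FANCD2-FANCI pair at DNA crosslinks and hands the site to the same machinery, while the kinases ATR and ATM, with CHEK1 and CHEK2 below them, hold the cell cycle during repair. A sister chromatid is present only after replication. Many of these genes are known to be transcribed in cycling cells under E2F factors, and to be low in cells that have left the cycle, as differentiating myocytes do.

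The promoter letters of 6 members are printed here because these genes changed between the genotypes and differ in whether they hold an E2F-type word. The windows run from 250 bases before to 50 bases after the annotated start, on build GRCm38.p6 (mm10), from RefSeq, 5′ to 3′ on the strand of the gene. Capitals mark TTTGGCGC, TTTCCCGC, TTTGCCGC or TTTCGCGC, or the same word read from the other strand.
Bard1 (chr1:71102923-71103222, - strand): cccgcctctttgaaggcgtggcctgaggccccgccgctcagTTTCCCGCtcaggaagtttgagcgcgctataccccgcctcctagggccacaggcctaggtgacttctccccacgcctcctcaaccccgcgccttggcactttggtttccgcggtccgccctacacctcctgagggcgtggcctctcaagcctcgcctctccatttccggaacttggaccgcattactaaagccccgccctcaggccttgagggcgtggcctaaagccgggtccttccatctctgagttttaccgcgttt
Brca2 (chr5:150522371-150522670, + strand): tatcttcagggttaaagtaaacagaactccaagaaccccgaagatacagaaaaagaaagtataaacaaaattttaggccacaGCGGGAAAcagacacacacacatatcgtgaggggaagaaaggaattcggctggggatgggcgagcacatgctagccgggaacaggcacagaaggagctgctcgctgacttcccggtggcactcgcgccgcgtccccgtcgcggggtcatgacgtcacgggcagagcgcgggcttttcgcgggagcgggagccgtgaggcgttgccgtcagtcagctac
Chek2 (chr5:110839733-110840032, + strand): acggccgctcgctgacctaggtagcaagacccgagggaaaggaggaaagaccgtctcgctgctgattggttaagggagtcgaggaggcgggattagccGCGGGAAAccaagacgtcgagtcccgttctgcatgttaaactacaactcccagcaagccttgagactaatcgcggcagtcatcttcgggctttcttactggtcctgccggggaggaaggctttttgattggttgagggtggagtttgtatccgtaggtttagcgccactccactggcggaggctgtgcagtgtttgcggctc
Clspn (chr4:126556730-126557029, + strand): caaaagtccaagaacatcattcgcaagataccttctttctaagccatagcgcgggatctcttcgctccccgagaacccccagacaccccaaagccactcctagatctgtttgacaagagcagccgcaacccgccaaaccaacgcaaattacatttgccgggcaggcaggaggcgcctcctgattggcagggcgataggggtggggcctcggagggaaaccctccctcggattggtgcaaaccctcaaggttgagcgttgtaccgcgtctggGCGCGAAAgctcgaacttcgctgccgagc
Topbp1 (chr9:103305077-103305376, + strand): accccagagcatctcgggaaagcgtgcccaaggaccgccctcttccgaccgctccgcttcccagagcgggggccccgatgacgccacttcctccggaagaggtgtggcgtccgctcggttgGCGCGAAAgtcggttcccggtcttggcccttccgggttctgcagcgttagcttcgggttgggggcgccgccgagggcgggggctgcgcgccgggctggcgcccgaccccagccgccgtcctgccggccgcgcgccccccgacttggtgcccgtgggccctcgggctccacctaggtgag
Brca1 (chr11:101551906-101552205, - strand): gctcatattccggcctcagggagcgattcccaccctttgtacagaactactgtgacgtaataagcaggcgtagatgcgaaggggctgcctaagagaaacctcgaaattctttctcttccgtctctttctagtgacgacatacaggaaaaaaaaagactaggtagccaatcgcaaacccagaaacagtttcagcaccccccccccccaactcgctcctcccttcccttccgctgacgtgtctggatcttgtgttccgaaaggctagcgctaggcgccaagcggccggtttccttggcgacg
The word began 209 bases before the start in Bard1, 168 before it in Brca2, 152 before it in Chek2 and 129 before it in Topbp1, and 21 bases after it in Clspn. The Brca1 window held none of these words.

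RefSeq gave 34 promoter windows for 30 of the 38 members. Its starts can differ from the gene starts used elsewhere here, and the windows of Slx4, Fancc and Fancl, for example, lie wholly inside those genes. An E2F-type word was found in the windows of 8 of these 30 genes, or 26.7%, against 4.43% of the 11110 tested genes with a window and 2.6% of all 27025 genes with one. The share was 46.2% among 26 replication genes and 9.09% among 11 mitotic marker genes. Besides the 5 printed, they were Fancg, Rad51c and Rmi1. Among members the share did not follow the size of the change: it was 26.7% of the 15 that were over 2-fold higher in KO and 26.7% of the other 15. The word CCAAT was found in 63.3% of the members with a window, against 42.5% of tested genes, 65.4% of replication genes and 90.9% of mitotic marker genes. The words TTTGAA and TTCGAA, which resemble the CHR element of late cell cycle promoters, were found in 13.3% of members, against 16.2% of tested genes, 23.1% of replication genes and 81.8% of mitotic marker genes. All words were searched on both strands. In none of the 9 member windows with an E2F-type word (0 of 9) did it share bases with a word of the other kinds, and a match describes letters and not binding.

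Library totals ran from 17919826 to 23646805 counts in KO and from 20193337 to 28430678 in WT, and 1 count stood for 0.0373 to 0.0527 CPM (counts per 1000000 scaled library counts). The members took 0.0536% to 0.057% of counts in KO libraries and 0.0309% to 0.0312% in WT libraries. The markers of satellite cells and myoblasts were detected in every library, at a summed 1746 to 1766 CPM in KO and 6605 to 6784 CPM in WT, with Pax7 (log2 fold change of KO over WT 0.53) and Msc (1.01) called higher and 6 of the 10 called lower, with the smallest p for Des (-2.43), Cdh15 (-2.005) and Itga7 (-1.87). Markers of other cell types were also present. Of 10 macrophage and leukocyte markers 9 were higher, with the smallest p for Lyz2 (1.53), Ctss (2.44) and Cd68 (2.25), with sums of 349 to 362 CPM in KO and 109.5 to 120.2 CPM in WT. All 10 endothelial markers were lower, with the smallest p for Cdh5 (-1.82), Pecam1 (-3.18) and Tie1 (-2.97), with 80.9 to 86 CPM in KO and 328.6 to 334.3 CPM in WT. Of 8 Schwann cell markers 5 were higher, among them Ngfr (2.00) and Sox10 (1.96), and Erbb3 (-1.02) and Pmp22 (-0.16) were lower, with 928.6 to 947.8 CPM in KO and 528.5 to 534.4 CPM in WT. Of 10 fibroblast and tendon markers 6 were higher, Thbs4 (4.31) among them, and Scx (-1.60), Dcn (-0.59) and Dpt (-0.42) were lower, with 11900 to 12647 CPM in KO and 10363 to 10511 CPM in WT. No marker was at 0 in any library. Mitochondrial genes took 2.07% to 2.3% of counts in KO and 3.97% to 4.18% in WT. The part of these differences in the results was not tested, and in bulk RNA a larger share of cycling cells cannot be told apart from more transcript per cell.

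In the matrix, most of the 38 members were higher in KO cells. All 38 members passed the low-count filter, and edgeR's quasi-likelihood test, adjusted over 15518 genes by the Benjamini-Hochberg method with a threshold of 0.05, called 34 of them higher and 1 lower, and did not call 3. Over all genes tested, 66.7% were called, 33.7% higher and 33% lower; 50.5% of all calls were higher, against 66.1% when libraries were scaled by size only. Of the members, 19 were called and over 2-fold higher, against 8.56% of all genes, and none was called and over 2-fold lower, against 9.38%. The median log2 fold change of KO over WT was 0.94 for the members and 0.021 for all genes tested. Because the members were chosen with earlier results known, these shares and medians are descriptions without a test of the list. In 31 members every KO library was above every WT library, an arrangement that 35.3% of all genes tested showed, and in the other 7 the groups overlapped. The values come from the whole-series matrix. In the per-library tables, the other deposited form of the counts, 9 of the 20 members tested there had the opposite sign: Brca1, Brca2, Palb2, Topbp1, Fanca, Fancf, Fancd2, Rad51b and Xrcc3. Only 6 of the 38 had similar means in both forms, and 8 had no counts in the per-library tables.

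**Figure D1:**
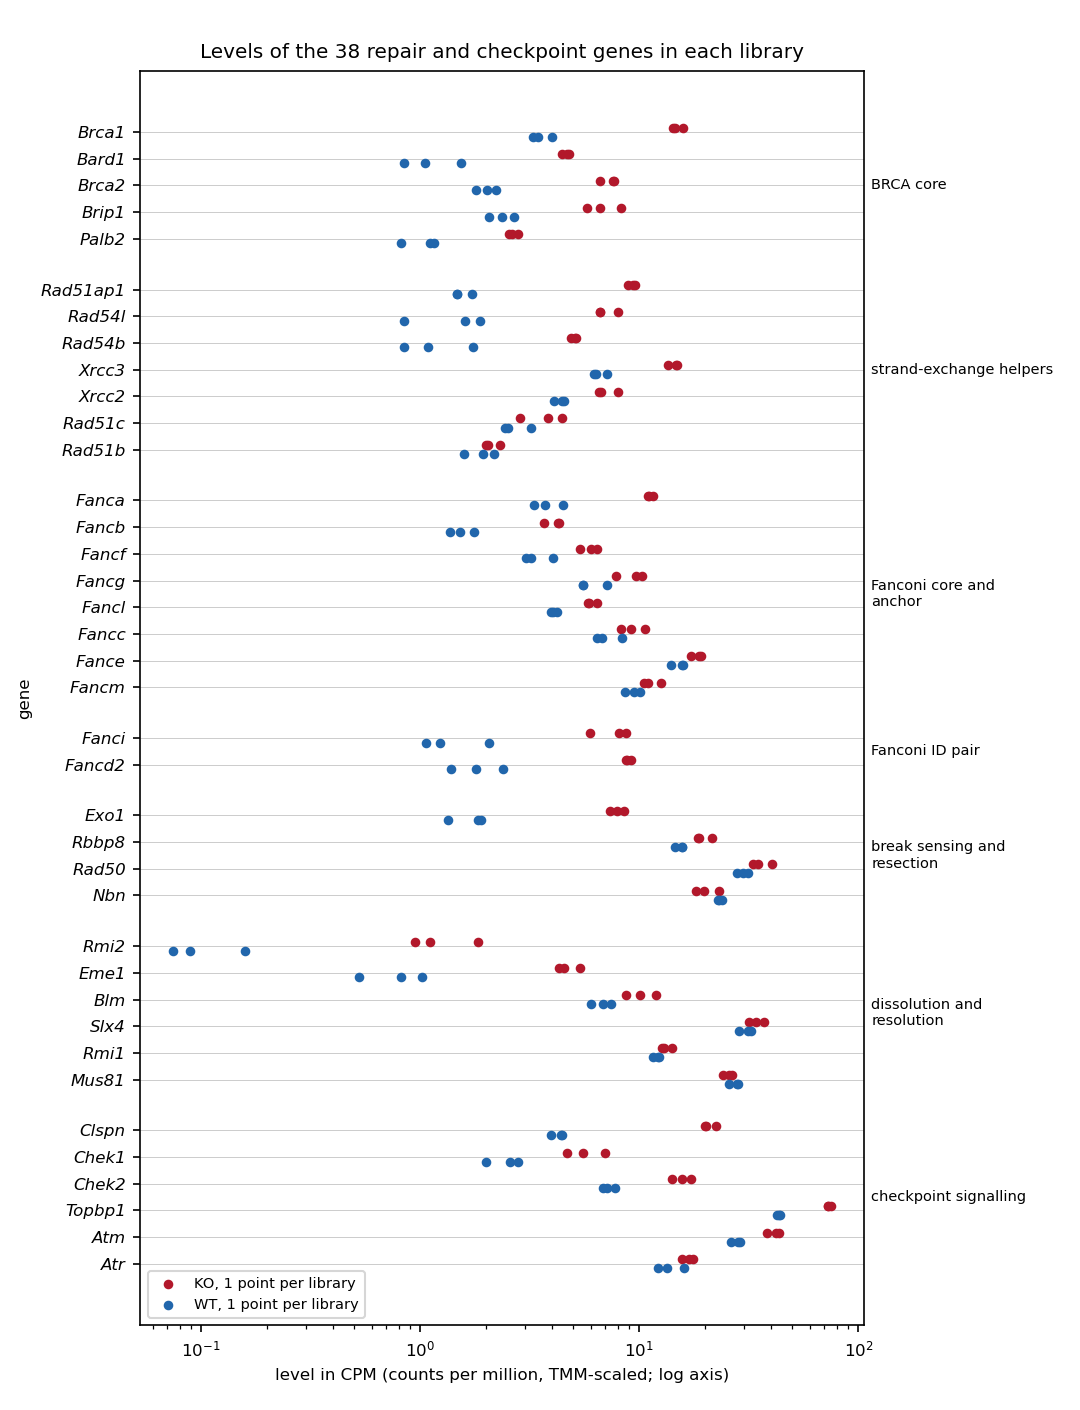
Levels of the 38 genes in CPM on a log axis, with 1 point per library, KO points above WT points and genes grouped by role. Every KO point lies right of every WT point in 31 genes; Rmi2 has the lowest levels and Topbp1 the highest.

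The change in level was uneven across the roles. The sum of the BRCA genes was 36.3 ± 1.87 CPM in KO and 10.1 ± 0.653 CPM in WT (SD, n = 3 each), 3.59-fold higher in KO, and the sum of the FANCD2-FANCI pair was 4.98-fold higher. The strand-exchange helpers were 2.47-fold higher in sum and the checkpoint genes 1.76-fold. The Fanconi core was 1.49-fold higher, the sensing and resection genes 1.2-fold and the dissolution and resolution genes 1.15-fold. These sums weigh abundant genes most, and they are descriptions without a test.

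In the matrix, all 5 genes of the BRCA group rose by over 2-fold. Brca1 encodes a ubiquitin ligase that promotes end resection (ENSMUSG00000017146, mm10 chromosome 11, 101488764 to 101551955, minus strand). It had 15.8, 14.3 and 14.5 CPM in KO libraries 1 to 3, against 4.01, 3.26 and 3.43 CPM in WT libraries 1 to 3. Every KO library was above every WT library, and the log2 fold change was 2.05 with an SE of 0.12 (adjusted p 5.1e-17). Its obligate partner Bard1 had 4.67, 4.46 and 4.8 CPM in KO, against 0.846, 1.05 and 1.53 CPM in WT (1.99, SE 0.21, adjusted p 4.07e-10). The ratio of Bard1 to Brca1 per kilobase of exon was 0.471 ± 0.027 in KO and 0.492 ± 0.177 in WT, and the groups overlapped.

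Brca2, which acts on single-stranded DNA before strand exchange (ENSMUSG00000041147, chromosome 5, 150522630 to 150570329, plus strand), had 7.61, 7.64 and 6.59 CPM in KO, against 2.23, 1.79 and 2.02 CPM in WT. It rose by 1.85 on the log2 scale (SE 0.16, adjusted p 3.34e-12). Palb2, the bridge between BRCA1 and BRCA2, had 2.63, 2.79 and 2.53 CPM in KO, against 1.11, 1.16 and 0.821 CPM in WT, and it had the smallest rise of the group (1.38, 95% confidence interval 0.88 to 1.88). The helicase gene Brip1 was at 6.61, 8.28 and 5.74 CPM in KO, against 2.67, 2.37 and 2.05 CPM in WT (1.56, SE 0.17). The groups did not overlap in any of the 5 genes. In the per-library tables Brca1 and Brca2 were called lower (-0.18, adjusted p 0.0371, and -1.59, adjusted p 2.98e-09), Palb2 was at -0.19 without a call and Bard1 was called higher (2.24, adjusted p 0.000794). The mean of Brca2 was similar in both forms (88.3 counts there against 103.8 in the matrix). The means differed widely for Brca1 (766.7 against 204.5), Palb2 (10.3 against 40.8) and Bard1 (8.5 against 64.3), so for these 3 the 2 forms hold unlike counts.

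Among the strand-exchange helpers, Rad51ap1 and the motor genes rose most and the others less. Rad51ap1 encodes a protein that stimulates strand invasion, and it had 9.6, 9.4 and 8.85 CPM in KO, against 1.47, 1.47 and 1.72 CPM in WT (log2 fold change 2.57, SE 0.16, adjusted p 2.01e-16). The translocase Rad54l had 6.61, 6.61 and 8.01 CPM in KO, against 1.87, 0.842 and 1.6 CPM in WT (2.26, SE 0.19). Its relative Rad54b had 5.16, 4.86 and 5.11 CPM in KO, against 1.74, 0.842 and 1.08 CPM in WT (2.03, SE 0.21). KO libraries were above WT libraries in all 3 genes. The annotation shares 15.4% of the exonic bases of Rad54l with Lrrc41 and 35.9% of those of Rad54b with Fsbp and Gm11832, and the sources used here do not state whether counting used strand.

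Xrcc2, Xrcc3, Rad51b and Rad51c encode subunits of complexes that assist strand exchange. Xrcc3 rose by 1.13 (SE 0.11) and stood at 13.5, 14.7 and 14.8 CPM in KO, against 7.12, 6.32 and 6.19 CPM in WT. Xrcc2 rose by 0.70 (SE 0.14). Rad51c, the partner of Xrcc3, had 3.85, 4.46 and 2.85 CPM in KO, against 2.45, 2.53 and 3.21 CPM in WT, so the groups overlapped. It was called (0.45, SE 0.19, adjusted p 0.0373), and the call was lost with DESeq2, limma voom and the replicate block and when KO replicate 1 or 2 or WT replicate 1 or 2 was left out, with adjusted p-values from 0.00455 to 0.243 over 13 alternatives. Rad51b was not called: it had 2.31, 2.03 and 2 CPM in KO, against 2.18, 1.58 and 1.94 CPM in WT, and its interval of -0.31 to 0.60 leaves room for a change of 1.5-fold upwards. Xrcc3 and Rad51b had the opposite sign in the per-library tables. Their means there were 2184 and 18.8 counts, against 232.7 and 45.2 in the matrix.

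**Figure D2:**
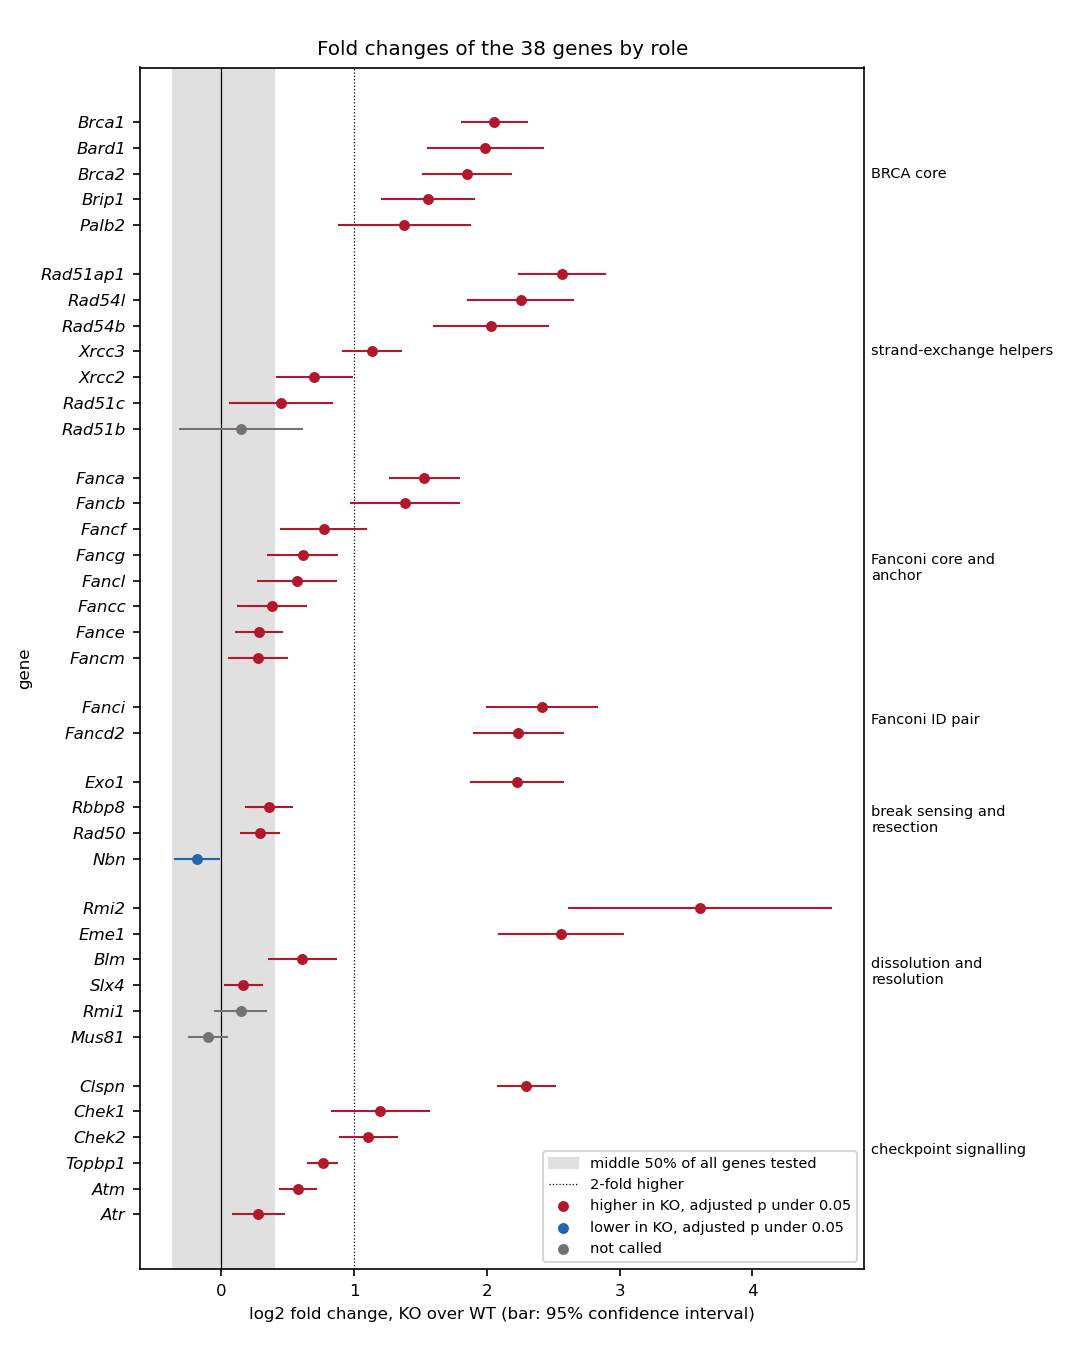
Log2 fold changes of KO over WT with 95% confidence intervals, in 7 role groups, over a band that holds the middle 50% of all 15518 genes tested. The points of the 5 BRCA genes and the FANCD2-FANCI pair all lie right of the 2-fold line, whereas the other groups spread over it. Nbn is the only gene called lower.

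In the matrix, both genes of the Fanconi substrate pair rose by over 4-fold. Fancd2, the substrate of the core complex (ENSMUSG00000034023, chromosome 6, 113531682 to 113597017, plus strand), had 9.15, 8.8 and 8.7 CPM in KO, against 1.38, 1.79 and 2.39 CPM in WT. Its partner Fanci (ENSMUSG00000039187, chromosome 7, 79391929 to 79450264, plus strand) had 5.98, 8.08 and 8.7 CPM in KO, against 1.07, 2.05 and 1.23 CPM in WT. Both rose with no overlap of the groups, by 2.24 (SE 0.17, adjusted p 3.06e-14) and 2.41 (SE 0.20, adjusted p 1.2e-11) on the log2 scale. Of the exonic bases of Fanci, 16% are shared with Polg. In the per-library tables Fancd2 had the opposite sign, and its mean was 1205 counts there against 119.5 in the matrix. Fanci had a mean of 2.17 counts there against 99.3 in the matrix.

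All 8 genes of the Fanconi core and its anchor were called higher in the matrix, and 2 by over 2-fold. Fanca, a core scaffold, had 11.1, 11.5 and 10.9 CPM in KO, against 3.69, 3.32 and 4.48 CPM in WT (1.53, SE 0.13, adjusted p 9.23e-13). Fancb had 3.67, 4.26 and 4.32 CPM in KO, against 1.51, 1.37 and 1.75 CPM in WT (1.38, SE 0.20). Fancl, the ubiquitin ligase that works in one module with Fancb, rose by 0.57 (SE 0.14). The intervals of Fancb (0.98 to 1.79) and Fancl (0.28 to 0.86) did not overlap. Fancf rose by 0.77, Fancg by 0.61, Fancc by 0.38 and Fance by 0.28 on the log2 scale. Fanca and Fancf had the opposite sign in the per-library tables. Their means there were 662.2 and 164.2 counts, against 167.8 and 104.7 in the matrix. The annotation shares 18.6% of the exonic bases of Fancc, 15% of Fancf, 13.7% of Fancl and 10.5% of Fanca with other genes. Fancm, the translocase that anchors the core on DNA, was called at 0.28 (SE 0.11, adjusted p 0.0226). The Fancm call was lost with DESeq2 and without KO replicate 2 or WT replicates 1 or 2, that of Fancc without KO replicate 3 or WT replicate 3, and that of Fance without WT replicate 1 (adjusted p up to 0.159 for Fancm, 0.0766 for Fancc and 0.0562 for Fance over 13 alternatives).

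Among the genes of break sensing and resection, the nuclease gene rose most. Exo1, the nuclease of long-range resection, had 8.47, 7.37 and 7.9 CPM in KO, against 1.34, 1.9 and 1.83 CPM in WT, and rose by 2.23 on the log2 scale (SE 0.17, adjusted p 6.87e-14). Rad50 and Nbn encode parts of the MRE11-RAD50-NBN complex that binds broken ends, and Rbbp8 encodes CtIP, its cofactor. Rad50 rose by 0.29 (SE 0.07) and Rbbp8 by 0.36 (SE 0.08). Nbn had 19.8, 23.1 and 18.1 CPM in KO, against 23, 22.8 and 23.9 CPM in WT, so KO replicate 2 lay within the WT range. It was called lower by a small amount (-0.19, SE 0.08, adjusted p 0.0434), a call lost in 8 of 13 alternatives: library size only, DESeq2, limma voom, GC and length offsets, and without KO replicates 1 or 3 or WT replicates 1 or 3 (adjusted p 0.00371 to 0.875). Mre11a, of the same complex and not among the 38, was called higher at 0.16 (adjusted p 0.0478).

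Genes that undo joined molecules included the largest and some of the smallest changes. Eme1, the regulatory subunit of the MUS81 endonuclease, had 4.53, 5.38 and 4.32 CPM in KO, against 1.02, 0.526 and 0.821 CPM in WT (2.56, SE 0.23, adjusted p 5.23e-12). Mus81, the catalytic subunit, had 24, 26.6 and 25.6 CPM in KO, against 25.7, 27.9 and 28.1 CPM in WT, and was not called (-0.10, interval -0.25 to 0.04). KO libraries were above WT libraries for Eme1 and overlapped them for Mus81. The ratio of Eme1 to Mus81 per kilobase of exon was 0.241 ± 0.0216 in KO and 0.0378 ± 0.0135 in WT (SD, n = 3 each), 6.37-fold higher in KO, and such a ratio within a library does not depend on how libraries are scaled. Eme1 shares 10.7% of its exonic bases with Lrrc59 and Mrpl27.

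The BLM dissolvase showed the same inequality. Rmi2, a small scaffold subunit, had 21, 46 and 21 counts in KO, against 2, 3 and 2 counts in WT, the lowest of all members. It rose by 3.61 on the log2 scale (SE 0.49, adjusted p 5.39e-08); the ratio of the summed counts at equal depth was 13 (exact binomial 95% interval 6.04 to 33.2, counting error only). Its partner Rmi1 had 13, 14.1 and 12.6 CPM in KO, against 11.6, 12.2 and 12.2 CPM in WT, which did not overlap, but the test did not call it (0.15, interval -0.04 to 0.34). It was called with library size only (0.32, adjusted p 0.00335) and with GC and length offsets (0.30, adjusted p 0.00488). The helicase Blm rose by 0.61 (SE 0.12), with 12, 10.1 and 8.7 CPM in KO, against 7.43, 6.84 and 6.01 CPM in WT. Slx4, a nuclease scaffold, was called at 0.17 (SE 0.07, adjusted p 0.0345), and the call was lost with no low-count filter, with DESeq2 and without KO replicates 1 or 2 or WT replicates 2 or 3 (adjusted p up to 0.264).

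All 6 checkpoint genes were called higher in the matrix. Clspn, Chek1 and Chek2 had larger fold changes than Atr and Atm, the kinases that start the signal. Clspn encodes claspin, which brings CHEK1 to ATR at stalled forks (ENSMUSG00000042489, chromosome 4, 126556935 to 126593903, plus strand). It had 20.1, 22.4 and 20 CPM in KO, against 4.45, 4.37 and 3.96 CPM in WT (2.30, SE 0.11, adjusted p 5.43e-20), the smallest p among the members. The effector kinase Chek1 had 6.97, 4.7 and 5.53 CPM in KO, against 2.58, 2 and 2.8 CPM in WT (1.20, SE 0.18). Chek2, the effector below ATM, had 17.2, 15.6 and 14.1 CPM in KO, against 7.12, 6.84 and 7.76 CPM in WT (1.11, SE 0.10). Groups did not overlap in any of these.

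Topbp1, which activates ATR, was the most abundant member in CPM, with 73, 75.1 and 72.5 CPM in KO, against 43.9, 42.4 and 43.5 CPM in WT (0.76, SE 0.05, adjusted p 1.02e-14). In the per-library tables it had the opposite sign, with 1223, 1409 and 1197 counts in KO and 1729, 1488 and 1985 in WT. Atm rose by 0.57 (SE 0.07), and its interval of 0.44 to 0.71 overlapped that of Topbp1 (0.65 to 0.87). Atr had 17.6, 16.8 and 15.7 CPM in KO, against 12.2, 16.1 and 13.3 CPM in WT; WT replicate 2 lay within the KO range. Its rise of 0.28 (SE 0.10, adjusted p 0.0103) lost its call without KO replicate 1, WT replicate 1 or WT replicate 3 (adjusted p up to 0.126). The ratio of Clspn to Atr per kilobase was 4.11 ± 0.319 in KO and 1.02 ± 0.158 in WT, 4.01-fold higher in KO.

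Levels of different genes are set side by side here per kilobase of exon. The length is that of all annotated exons of a gene joined, from 2533 bases in Nbn to 23629 in Atr, for example. It can exceed the length of the transcripts present, by an amount that differs between genes and was not measured. The order of the genes below therefore depends on the annotation as well as on the counts. The 19 members called over 2-fold higher had a median of 1.24 CPM per kilobase of exon in KO and 0.286 in WT, and the other 19 had 2.02 in KO and 1.6 in WT. Nbn (8.03 ± 1 CPM per kilobase in KO, 9.17 ± 0.227 in WT) and Mus81 (7.11 ± 0.361 in KO, 7.64 ± 0.37 in WT) had the highest means of the 38 in both groups; their SD ranges overlapped in KO and not in WT. In KO the next means were those of Rad50 (6.7 ± 0.691) and Topbp1 (6.55 ± 0.121). The SD range of Rad50 in KO overlapped those of Topbp1, Mus81 and Nbn, so its mean was not separated from theirs beyond the spread. Rmi2 was the lowest in both groups (0.288 ± 0.105 in KO, 0.0238 ± 0.00991 in WT). The fold change and the WT level share the WT values, so their relation is a description only.

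**Figure D3:**
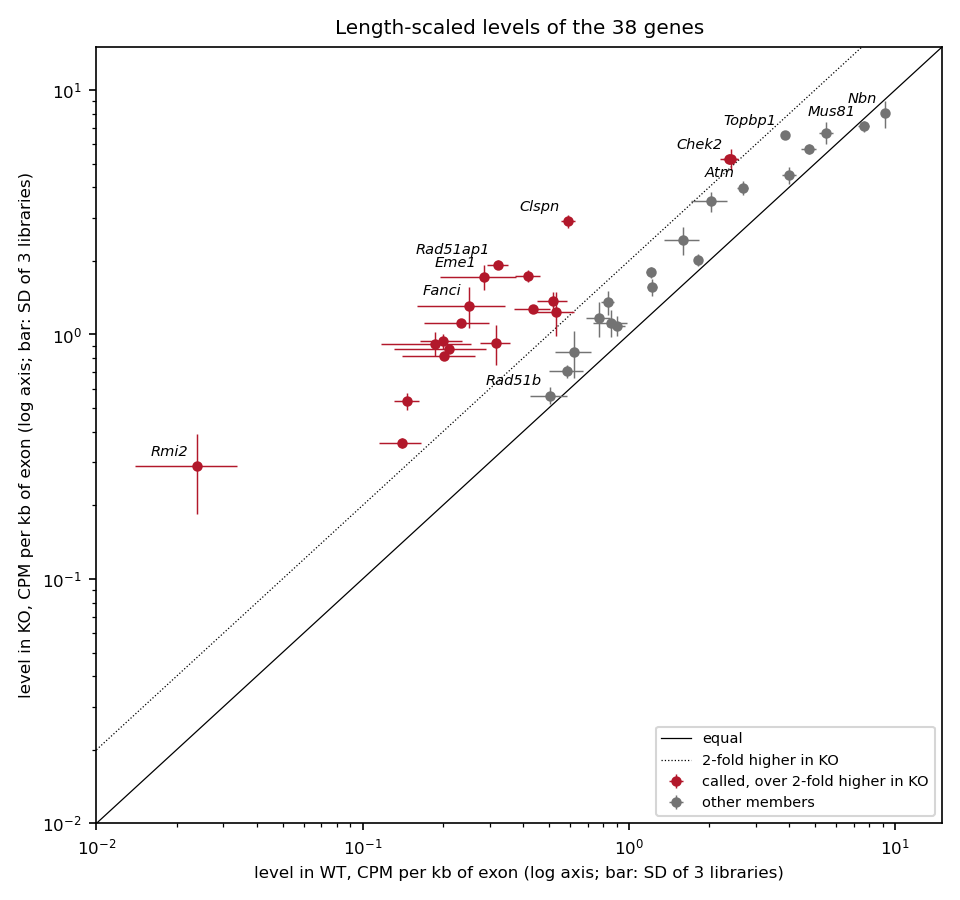
Mean level in KO against mean level in WT, both in CPM per kilobase of exon on log axes, with the SD of 3 libraries as bars. Red points, the 19 members called over 2-fold higher in KO, lie mostly at low WT levels, whereas the grey points run along the line of equality up to Mus81 and Nbn.

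Other genes of the pathway were also mostly higher, with a smaller median. Of 42 tested homologous recombination and Fanconi genes outside the 38, 32 were higher, 2 were lower and 8 were not called (median log2 fold change 0.45), and 7 rose by over 2-fold. Fignl1, an ATPase gene of the pathway, rose by 1.82 (SE 0.12, adjusted p 1.04e-15), and H2afx, the histone variant marked at breaks, by 1.09 (10.2% of its exonic bases are shared with Gm44335). The lower genes were Sfr1 (-0.36), a cofactor of strand exchange, and Brcc3 (-0.28), a deubiquitinase of the BRCA1-A complex. Of 14 other checkpoint genes, 9 were higher and 1, the clamp loader Rad17 (-0.33), was lower (median 0.48). The phosphatase gene Cdc25c rose by 3.26 (12.7% of its exonic bases are shared), and the replication kinase subunit Dbf4 and the fork protein Timeless rose by 0.97 and 1.22.

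Other repair pathways had medians nearer 0. Of 14 end-joining genes, 6 were higher and 3 were lower (median 0.084): Polq, of the polymerase theta pathway, rose by 2.02 and the kinase gene Prkdc by 0.74, whereas Trp53bp1, which restrains resection, fell by 0.53 (15% of its exonic bases are shared with Tubgcp4), Paxx by 0.53 and the ligase gene Lig4 by 0.70. Of 19 nucleotide excision repair genes, 5 were higher and 6 lower (median -0.0070), with Ddb1 lower at -0.47, and Ddb2 (0.99, with 23.8% of its exonic bases shared), Uvssa (0.52), Ercc8 (0.34), Xpa (0.29) and Ercc4 (0.24) higher. Of 18 base excision genes, 10 were higher and 6 lower (median 0.28), and the glycosylase genes Neil3 (3.17), Neil2 (1.73) and Ogg1 (0.66) had the smallest p. Of 7 mismatch repair genes, 4 were higher, among them Msh6 (0.81), and Mlh3 and Msh3 were lower (-0.36 and -0.35), with a median of 0.31. Of 8 translesion genes, 2 were higher, Rad18 (1.29) and Poli (0.60), and Polk (-0.35) and Ube2b (-0.17) were lower (median -0.026). These counts depended on scaling. With library size only, the higher and lower calls were 11 and 3 for nucleotide excision repair and 11 and 1 for base excision. They were 4 and 1 for translesion synthesis, 8 and 3 for end joining and 4 and 1 for mismatch repair. The p53 target list had 5 higher and 9 lower of 16 (median -0.21): Cdkn1a, the CDK inhibitor, fell by 1.23 and Eda2r by 0.93, and Sesn2 (1.02), Trp53inp1 (0.65), Bbc3 (0.52), Bax (0.36) and Plk2 (0.19) rose.

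Genes of the replication and mitotic machinery rose beside the repair genes. All 33 replication genes were called higher (median 1.24), with the helicase subunits Mcm5 (2.24), Mcm3 (2.00) and Mcm6 (1.54) at the smallest p, and all 14 mitotic markers (median 2.22), with Top2a (2.29), Tpx2 (2.13) and Ccna2 (2.28). Summed mitotic markers were 638.5 ± 29.1 CPM in KO and 137.9 ± 1.16 CPM in WT, 4.63-fold higher in KO, and summed members were 523.7 ± 15.7 CPM in KO and 329.9 ± 1.76 CPM in WT, 1.59-fold higher. The ratio of the 2 sums was 0.811 to 0.836 in KO and 2.36 to 2.41 in WT, which did not overlap. For the FANCD2-FANCI pair alone the ratio to the mitotic sum was 0.0234 to 0.0287 in KO and 0.0176 to 0.0279 in WT, and the groups overlapped. For the BRCA genes it was 0.0564 to 0.0576 in KO and 0.0699 to 0.0781 in WT, lower in KO with no overlap. Among 19 E2F and DREAM regulators, 8 were higher and 7 lower (median 0.012): Foxm1, a mitotic factor, rose by 2.13, whereas E2f2 fell by 2.21 and Rb1, which holds E2F factors, by 1.47 (14.9% of its exonic bases are shared). How far the change of the repair genes follows from the proliferation markers was not tested.

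**Figure D4:**
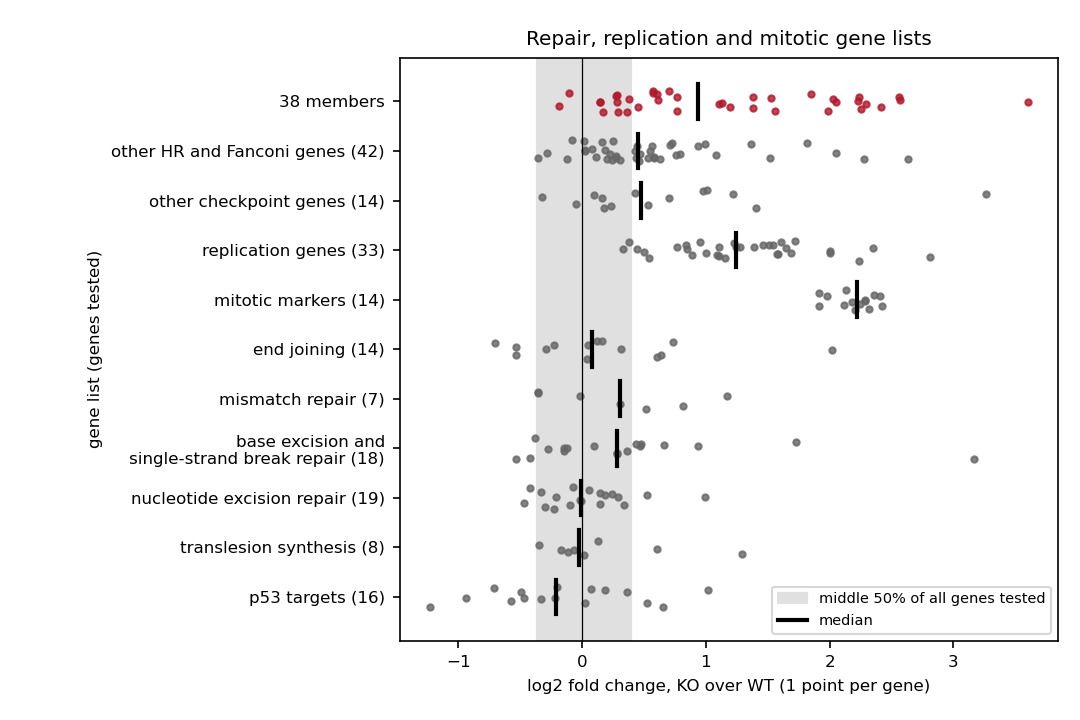
Log2 fold changes of KO over WT, with 1 point per gene and a bar at the median of each list; the grey band holds the middle 50% of all genes tested. The medians of the 38 members (0.94), the replication genes (1.24), the mitotic markers (2.22) and the other pathway and checkpoint genes (0.45 and 0.48) lie right of the band, and those of end joining, nucleotide excision repair and translesion synthesis lie near 0. Those of mismatch repair (0.31) and base excision (0.28) lie within the band above 0, and that of the p53 targets (-0.21) lies within it below 0.

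Many of the members start next to another gene on the opposite strand. A gene of the other strand began within 1000 bases of the annotated start of 17 members (44.7%), against 23.5% of the 15743 protein coding genes in the matrix; counting only protein coding neighbours, the shares were 36.8% and 14.2%. Of the 17 neighbours, 13 were tested, 8 of them were called higher and 2 lower (median log2 fold change 0.23). Brca1 (2.05) and Nbr1, an autophagy receptor gene whose start lies 194 bases away, moved in opposite directions: Nbr1 fell by 0.36 (SE 0.04, adjusted p 3.96e-09). The ratio of Brca1 to Nbr1 per kilobase was 0.0719, 0.0604 and 0.0663 in KO, against 0.0138, 0.011 and 0.0121 in WT, 5.38-fold higher in KO with no overlap. Rad54l (2.26) and Pomgnt1, a glycosyltransferase gene 150 bases away, also moved apart, as Pomgnt1 fell by 0.51 (SE 0.05, adjusted p 1.33e-10). Both falls kept their call with library size only, at -0.19 and -0.34.

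The other tested neighbours had log2 fold changes of -0.098 to 1.04. Fancd2 and Emc3, whose starts lie 30 bases apart, were at 2.24 and -0.087, and Emc3 was not called (SE 0.04, adjusted p 0.0849). Rad51ap1 and D6Wsu163e were at 2.57 and 0.34, Eme1 and Mrpl27 at 2.56 and 0.29, Brip1 and Brip1os at 1.56 and 0.30, and Xrcc3 and Zfyve21 at 1.13 and 0.48, and all 4 neighbours were called higher. Mospd2 beside Fancb (-0.098) and Dctn5 beside Palb2 (0.091) were not called. Mospd2 and Emc3 had positive values with library size only (0.072 and 0.084, not called), and Dctn5 was called there (0.26). Chek2 and its neighbour Hscb, an iron-sulphur chaperone gene 202 bases away, rose by similar amounts: Hscb rose by 1.04 (SE 0.12) and Chek2 by 1.11, and the Chek2 to Hscb ratio per kilobase was 0.427 ± 0.0631 in KO and 0.407 ± 0.0217 in WT, with overlap. Near the smaller changes, Gas2 beside Fancf (0.48), Zfyve26 beside Rad51b (0.23) and Npat beside Atm (0.18) were called higher; the Npat call was lost with DESeq2 (adjusted p 0.0606). The annotated transcripts of Eme1 and Mrpl27 and those of Fancf and Gas2 overlap at their starts. These pairs were compared after their values were seen, and the differences within pairs were not tested.

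**Figure D5:**
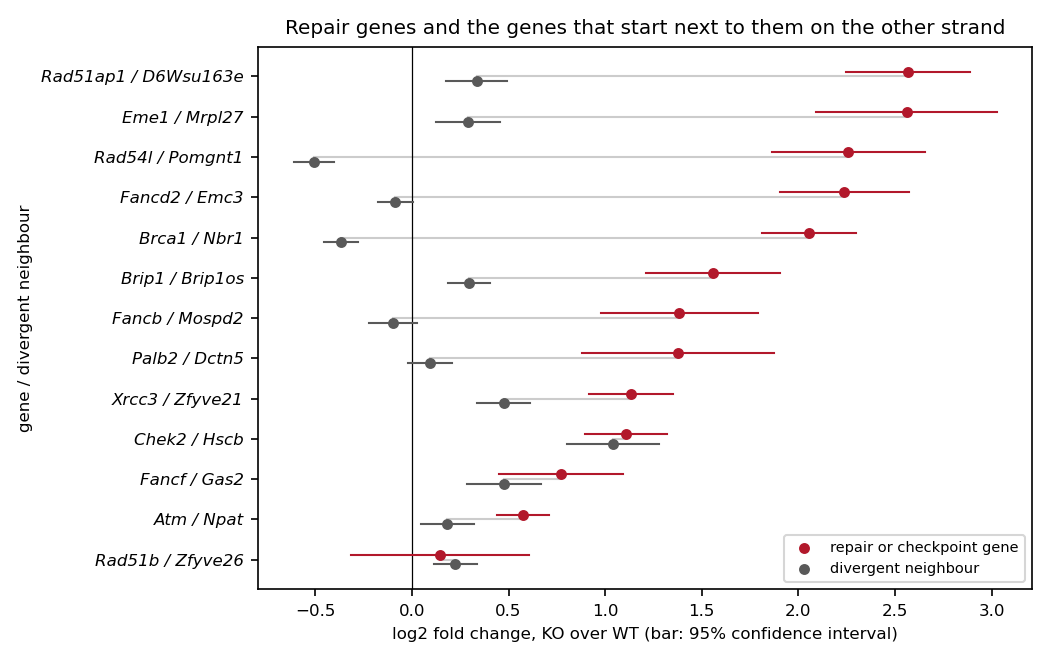
Log2 fold changes of KO over WT, with 95% confidence intervals, of 13 members (red, upper) and of the tested gene that starts within 1000 bases on the other strand (grey, lower). The intervals of member and neighbour are apart in 10 of the 13 pairs and overlap in 3, those of Chek2, Fancf and Rad51b.

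The 2 deposited forms of the counts did not give the same values for most members. The per-library tables and the matrix had means of which the smaller was at least 0.8 of the larger for 6 of the 38. Rad54b, Fancg and Nbn were among these 6, with log2 fold changes of 2.10, 0.67 and -0.15 in the per-library tables, against 2.03, 0.61 and -0.19 in the matrix. The per-library mean was 0 for 8: Exo1, Chek1, Rmi1, Slx4, Fancb, Fance, Rad51ap1 and Xrcc2. It was near 0 for Mus81 (1.17 counts against 590.5 in the matrix), Chek2 (0.5 against 256.3) and Rad54l (0.17 against 94.2). The changes of all these genes are read from the matrix alone. Eme1 had the same sign in both (0.74 against 2.56). Brca2 and Topbp1 had similar means in both forms and opposite signs, at -1.59 and -0.36 in the per-library tables. The 2 forms come from the same libraries, so matching values are no independent check.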

How the data were processed

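Raw counts per Ensembl gene were deposited by the authors as a matrix of 21666 genes and as a table per library of 55359 genes. HISAT2 2.2.1, featureCounts 2.0.1 and mm10 are named in the submitters' processing notes; the annotation release, options and strand setting were not given in the sources used here. Values come from the matrix unless the per-library tables are named. Of its genes, 21632 matched GENCODE M21 (mm10) by identifier, which gave symbols, positions, exon lengths and shared exonic bases.

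Genes were filtered with filterByExpr (minimum count 10, total 15) of edgeR 4.0.16 in R 4.3.3, scaled by TMM, and KO was compared with WT by the quasi-likelihood F-test with robust dispersions, using genotype as the sole model term. Benjamini-Hochberg adjustment ran over all 15518 genes, with calls under 0.05. Standard errors are the log2 fold change over the square root of F. CPM use TMM-scaled library sizes. The code was tested on simulated counts with changes in a small share of genes, equal in number up and down. That setting does not cover the wide change between the genotypes found here. Replicate pairs differed beyond sampling noise (mean chi-square per gene 3.18 to 5.11). DESeq2 1.42.0, limma 3.58.1 and other alternatives are in the closing section. The members and gene lists were chosen with earlier results of these data known. All members and tested divergent neighbours were named, with the 3 genes of smallest p of each other list and, where 5 or fewer, those called against its median; Mre11a, Ube2b and the gene pairs were chosen after their values were seen. Some genes that the rule names are not reported here. The targeted lncRNA was not analysed here.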

Additional observations from a re-analysis of the deposited data

How the results depend on the processing

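Over 13 alternatives (other scaling, filter and tools, the replicate block, GC and length offsets, and each library left out), 29 of 38 members kept direction and call in all 13, and the 19 calls over 2-fold held in each of the 13. The members called higher ran from 30 to 33 with 1 library left out, those called lower from 0 to 1 and those over 2-fold stayed at 19, with medians of 0.90 to 0.99 and 9766 to 10151 calls over all genes. The single lower call, that of Nbn, was 0 with library size only, DESeq2, limma voom and the GC and length offsets. Library size only moved the median of all genes to 0.19 from 0.021 and that of the members to 1.11, with 66.1% of all calls higher in place of 50.5%; Mus81 changed sign there (0.069, not called). A test against a 1.5-fold change called 20 members higher, 0 lower and 3394 genes in all. The replicate numbers did not pair the libraries (correlations of deviations -0.025 to -0.000914 for equal numbers); with the replicate block 33 members were higher and only the Rad51c call was lost. The per-library tables tested 20 members and called 8 higher, 6 lower and 3 over 2-fold, with a median of 0.076, and 5436 genes in all. Signs were opposite there for Brca1 (-0.18), Brca2 (-1.59), Palb2 (-0.19), Topbp1 (-0.36), Fanca (-0.19), Fancf (-2.15), Fancd2 (-0.055), Rad51b (-1.39) and Xrcc3 (-0.67); the cause was not tested. Depth limits Rmi2 most, which had 7 counts over the WT libraries.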
